A study of Mus musculus with 6 samples.

Results

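Neuronal and synaptic genes that are known or reported targets of the repressor REST were followed in mouse E14 embryonic stem cells exposed to a histone deacetylase inhibitor. The set holds 44 genes taken from a written list. A gene entered through a probeset that the array annotation pairs with its symbol alone, and where there were several, the brightest on average was taken. All 44 written genes were found this way among 19938 genes on the array, and only Unc13a and Ina had more than 1 such probeset.

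E14 cells, an undifferentiated mouse line, were grown with leukemia inhibitory factor and serum on a layer of mitomycin-C-treated primary embryonic fibroblasts, in every group alike. Untreated control cells, cells given 0.5 mM valproic acid (VPA) and cells given 0.2 mM sodium butyrate (NaBu) were compared after 16 h, with 2 samples in each group and 1 array per sample. Both compounds are short-chain fatty acids that inhibit histone deacetylases, VPA with a branched chain and butyrate with a straight one, and they were used at different doses. The labels do not say whether the samples numbered 1 and 2 are separate cultures, so all p-values measure the spread between these samples, which may be technical. Arrays with the same number shared much of their deviation, so differences within replicate set 1 (the arrays numbered 1) and replicate set 2 stand beside the group means.

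REST is a zinc finger protein that binds a DNA element called RE1 in and near neuronal genes. It recruits CoREST, Sin3 and histone deacetylases, and so keeps these genes silent in most cells outside the nervous system. In embryonic stem cells REST is abundant and many neuronal genes are held in a repressed but inducible state. Inhibitors of histone deacetylases act on enzymes of the kind that REST brings to its targets.

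The RE1 element has a left part, searched here as AGCACC, and a right part, searched as GGACAG, with 2 bases between them in the common form. Both strands were searched in promoters of RefSeq (build GRCm38.p6), each 250 bases before to 50 bases after a gene's start. Of the 44 genes, 33 had an entry, with 49 promoters, since a gene such as Bdnf has several starts. Both parts at the common spacing were found in 1 of the 49 promoters (2.04%), that of Gria2, and in 15 of 19177 promoters (0.0782%) of the genes on the array. The left part was in 12 of the 49 (24.5%, 11 genes) against 16.5% of the array genes' promoters. The right part was in 13 (26.5%, 13 genes) against 22.9%. Some starts of a gene lie close together, as in Elavl4, so their promoters overlap and 1 match can be counted more than once. The set was written as REST targets, so a higher share than among all genes carries no test. A match is a description of letters and not a binding site, and RE1 elements also lie in introns and far from starts, outside this window. Only exact letters were counted, so an element that differs in any of these bases would be missed.

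Of the 49, 3 promoters are printed as examples of how these letters occur. Each matched part is in capitals, on whichever strand it was found, and the rest is in lower case. Gria2 has the full element, read on the strand opposite to the gene and beginning 170 bases before the start. In Scg2 the parts lie directly beside each other with no base between, again on the opposite strand and beginning 13 bases before the start, a form found in 1 of the 49 promoters and in 2 of the 19177 by a search added after the data were seen. Syn1 has the left part 3 times and no right part in these letters. Unc13a, which is not printed, also has both parts, the left 1 time and the right 2 times. They lie at neither of the spacings searched, and wider spacings were not counted. Gria2 lies on the minus strand at chr3:80802786-80803085, Scg2 on the minus strand at chr1:79439977-79440276 and Syn1 on the minus strand at chrX:20920869-20921168, and each is printed 5′ to 3′ along its gene.
Gria2: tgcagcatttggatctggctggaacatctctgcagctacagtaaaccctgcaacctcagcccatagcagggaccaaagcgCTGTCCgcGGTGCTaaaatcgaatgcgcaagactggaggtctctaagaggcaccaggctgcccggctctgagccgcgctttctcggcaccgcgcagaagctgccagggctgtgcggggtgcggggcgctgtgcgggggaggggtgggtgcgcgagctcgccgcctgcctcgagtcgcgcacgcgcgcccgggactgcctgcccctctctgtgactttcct
Scg2: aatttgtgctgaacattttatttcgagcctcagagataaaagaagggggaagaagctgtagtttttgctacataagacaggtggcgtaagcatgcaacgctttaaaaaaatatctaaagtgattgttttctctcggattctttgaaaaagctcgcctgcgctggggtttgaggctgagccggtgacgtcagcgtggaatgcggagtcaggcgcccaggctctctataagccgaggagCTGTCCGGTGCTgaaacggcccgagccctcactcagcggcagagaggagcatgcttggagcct
Syn1: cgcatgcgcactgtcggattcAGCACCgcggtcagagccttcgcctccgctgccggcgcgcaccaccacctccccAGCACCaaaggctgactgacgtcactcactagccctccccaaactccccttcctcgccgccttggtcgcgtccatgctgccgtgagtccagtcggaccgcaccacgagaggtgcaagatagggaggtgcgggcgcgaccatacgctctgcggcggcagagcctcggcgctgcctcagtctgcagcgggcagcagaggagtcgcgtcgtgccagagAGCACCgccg

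With VPA most of the set stood above the untreated level, by small amounts, and no member passed the test. Of the 44 genes, 32 had a log2 difference above 0, with a median of 0.17, against 53.0% and a median of 0.01 over all genes. In 23 of the 44 (52.3%) the difference lay above 0 in both replicate sets, against a background of 32.0% of all genes, and in 3 (Nefh, Cplx2 and Dcx) it lay below 0 in both, against 28.0%. The median of the set was 0.14 in set 1 and 0.12 in set 2, while the mean was 0.27 and 0.13. In 18 of the 44 the sets had opposite signs. Leaving out control replicate 1 gave a median of 0.11. Leaving out VPA replicate 1 from a blocked fit, which has a term for the replicate number, gave a median of 0.10. After median centring or quantile normalization 30 members lay above 0, with medians of 0.13 and 0.12. The members were chosen with earlier results of these arrays in view, so these counts are descriptions and carry no test.

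limma called 0 of 44 members at an adjusted p under 0.05, and 0 of all 19938 genes (0.0%), with 981 genes at an unadjusted p under 0.05. The smallest adjusted p among the members was 0.964. At an unadjusted p under 0.05, 5 members were higher (11.4%, background 2.74%) and 0 were lower (background 2.18%), and the 5 were Map2, L1cam, Chga, Elavl4 and Syt11. With the replicate block, which removes the difference between the sets from the error, limma again called 0 genes, and 12 members were higher at an unadjusted p under 0.05 (27.3%, background 7.21%) and 1 lower, Nefh (background 6.01%). When VPA replicate 2 was also left out, the blocked model called 774 genes, and among them 7 members, Nefm (1.96), Map2 (1.09), Syt1 (0.93), Cntnap2 (0.93), App (0.84), Elavl3 (0.80) and Nefl (0.68). That model rests on 1 residual degree of freedom and on VPA replicate 1 alone for the treated cells. Both VPA arrays exceeded both control arrays for 17 members (38.6%, background 19.1%), and both lay below for 1, Cplx2 (background 15.6%).

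**Figure D1:**
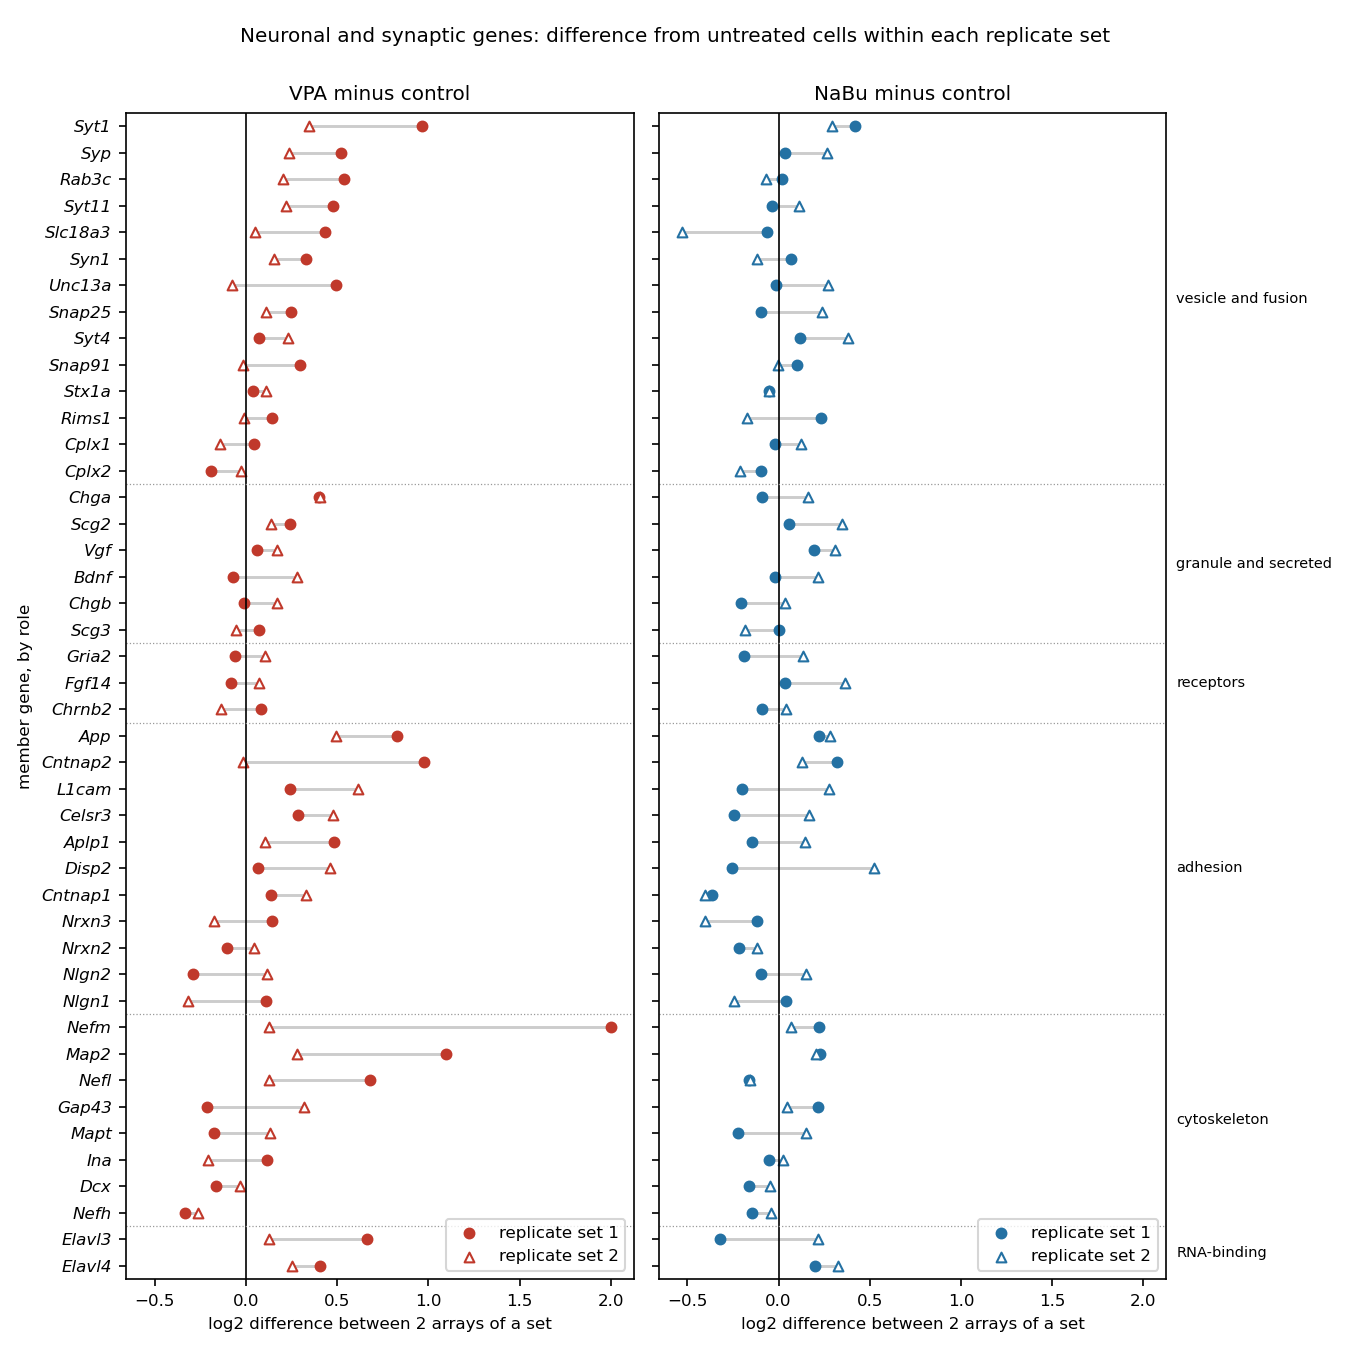
Log2 difference from untreated cells for each of the 44 genes, grouped by role, with VPA on the left and NaBu on the right; the filled circle is replicate set 1, the open triangle replicate set 2, and each point compares 2 arrays. With VPA 23 genes have both points above 0 and 3 have both below, while with NaBu 12 have both above and 9 both below.

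Among proteins of the synaptic vesicle and its fusion machinery, 12 of 14 genes lay above 0 with VPA, with a median of 0.19, and 9 in both sets. Syt1, which encodes the calcium sensor synaptotagmin of fast release, stood at 4.79 and 5.66 (log2 intensity) on the untreated arrays, 5.75 and 6.01 with VPA, and 5.21 and 5.96 with NaBu. It is given in full although it was chosen after its values were seen. Both VPA arrays lay above both control arrays, and the difference was 0.66 (95% interval -0.19 to 1.50), a 1.57-fold ratio of intensities, with 0.96 in set 1 and 0.35 in set 2.

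The related gene Syt11, a synaptotagmin that does not bind calcium, had values of 6.78 and 6.90 untreated, 7.26 and 7.11 with VPA, and 6.75 and 7.01 with NaBu. Its VPA arrays were above all other arrays, with a difference of 0.35 from control (95% interval 0.01 to 0.69). Rab3c, a vesicle GTPase, had 2.97 and 3.31 untreated and 3.50 and 3.51 with VPA, against 2.99 and 3.24 with NaBu. Here too the VPA pair lay highest, at 0.37 above control (95% interval -0.02 to 0.76). Syn1, whose product synapsin I tethers vesicles to actin, had 5.40 and 5.53 untreated, 5.73 and 5.69 with VPA, and 5.46 and 5.41 with NaBu. The difference for VPA was 0.24 (95% interval -0.04 to 0.52), and NaBu stood at -0.03.

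The vesicle genes Syp, Snap25 and Syt4 had VPA intervals that include 0. Syp, the vesicle membrane protein synaptophysin, had 4.42 and 5.09 untreated, 4.94 and 5.33 with VPA, and 4.46 and 5.36 with NaBu. The groups overlapped, and the VPA difference was 0.38 (95% interval -0.48 to 1.24). Snap25, a SNARE protein of membrane fusion, had 4.02 and 4.05 untreated and 4.26 and 4.16 with VPA, a difference of 0.18 (95% interval -0.19 to 0.55), and 3.92 and 4.29 with NaBu. Syt4, a synaptotagmin of dense-core vesicles, had 5.24 and 5.18 untreated, 5.31 and 5.41 with VPA, and 5.36 and 5.56 with NaBu. For Syt4 all treated arrays lay above the untreated ones, by 0.15 with VPA and 0.25 with NaBu (95% interval -0.06 to 0.56).

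Of the remaining vesicle genes, Slc18a3, the vesicular acetylcholine transporter, stood at 0.24 with VPA, with both VPA arrays above both untreated arrays, and Unc13a, a priming factor of vesicle release, at 0.21. Snap91, an endocytic clathrin adaptor, stood at 0.14 with VPA, the SNARE gene Stx1a at 0.08, the active zone gene Rims1 at 0.07 and the complexin Cplx1 at -0.05. Cplx2, the other complexin of the set, had 4.75 and 4.72 untreated, 4.55 and 4.69 with VPA, and 4.65 and 4.51 with NaBu. Its treated arrays all lay below the untreated ones, by -0.11 with VPA (95% interval -0.40 to 0.18) and -0.15 with NaBu (95% interval -0.45 to 0.14).

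All 6 genes of dense-core granules and secreted factors had a VPA difference above 0, 3 of them in both sets, with a median of 0.11. Chga, which encodes the granule protein chromogranin A, had 6.62 and 6.73 untreated, 7.02 and 7.13 with VPA, and 6.53 and 6.89 with NaBu. The VPA arrays were the highest of the 6, and the difference of 0.40 (95% interval 0.03 to 0.78) was the same size in both sets, 0.40 and 0.41. Scg2, secretogranin II, whose promoter is printed above, had 3.59 and 3.71 untreated, 3.82 and 3.85 with VPA, and 3.64 and 4.06 with NaBu. It stood at 0.19 with VPA (95% interval -0.20 to 0.58) and 0.20 with NaBu. Vgf, a secreted neuropeptide precursor, stood at 0.11 with VPA, Chgb at 0.08 and Scg3 at 0.01, and Scg3 lay below 0 after median centring or quantile normalization. Bdnf, the neurotrophin, had 5.57 and 5.39 untreated, 5.50 and 5.67 with VPA, and 5.55 and 5.60 with NaBu, so that the groups overlapped and the sets pointed in opposite directions with VPA, -0.07 and 0.28.

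The receptor and excitability genes lay close to 0 with VPA. All 3 were dim, below the median level of all genes (5.77), and whether a change could be seen at such levels was not tested. Gria2, an AMPA receptor subunit and the gene with the full RE1 letters in its promoter, had 2.81 and 2.69 untreated, 2.75 and 2.79 with VPA, and 2.62 and 2.82 with NaBu. It is given in full because its promoter is shown, outside the rule for such genes. These values overlap, and the VPA difference was 0.02 (95% interval -0.29 to 0.33), which lay below 0 after median centring or quantile normalization. Chrnb2, a nicotinic receptor subunit, stood at -0.03 and Fgf14, an intracellular modulator of sodium channels, at -0.00. None of these 3 genes had the same direction in both sets with VPA.

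Genes of cell adhesion and synapse organisation included some of the largest VPA differences. App, which encodes the amyloid precursor protein and is active in many cell types besides neurons, had 8.23 and 8.93 untreated, 9.06 and 9.42 with VPA, and 8.45 and 9.21 with NaBu. Both VPA arrays lay above both untreated arrays, and the difference was 0.66 (95% interval -0.13 to 1.45), a 1.58-fold ratio, with 0.83 in set 1 and 0.49 in set 2. With the replicate block the interval was 0.36 to 0.96 (limma with Benjamini-Hochberg adjusted p 0.201). Markers of feeder fibroblasts, measured on the same arrays, had a mean VPA difference of -0.21 in set 1, where App was further above 0, and of 0.19 in set 2. In RNA from whole wells a change in the number of cells of a type and a change in RNA per cell cannot be told apart.

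L1cam, a neuronal adhesion molecule, had 5.41 and 5.16 untreated, 5.66 and 5.78 with VPA, and 5.21 and 5.44 with NaBu. The VPA pair lay above the other 4 arrays, with a difference of 0.43 (95% interval 0.07 to 0.79). Celsr3, a cadherin of axon guidance, stood at 0.38, with 0.28 in set 1 and 0.48 in set 2, and Disp2 at 0.26. Aplp1, a homologue of App, had 7.99 and 8.70 untreated, 8.47 and 8.81 with VPA, and 7.84 and 8.85 with NaBu, and the groups overlapped, with a VPA difference of 0.29 (95% interval -0.62 to 1.21).

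Cntnap2, a neurexin-like adhesion protein, depended on 1 array. Its values were 5.04 and 4.99 untreated, 6.01 and 4.97 with VPA, and 5.36 and 5.11 with NaBu, so the difference was 0.97 in set 1 and -0.01 in set 2. This gene too was chosen for full values after they were seen. In the same group Cntnap1 stood at 0.23 with VPA, with 0.14 in set 1 and 0.33 in set 2 and no overlap with the untreated arrays. Nrxn3 stood at -0.02, Nrxn2 at -0.03, Nlgn2 at -0.09 and Nlgn1 at -0.10. These last genes encode neurexins and neuroligins, partners across the synaptic cleft, and none of them had a difference of the same sign in both sets.

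The cytoskeletal genes were split, with 4 of 8 above 0 with VPA and a median of 0.02. Map2, a microtubule protein of dendrites, had 5.33 and 5.92 untreated, 6.43 and 6.20 with VPA, and 5.56 and 6.13 with NaBu. The VPA pair was the highest, with a 1.61-fold ratio to control, and the log2 difference of 0.69 (95% interval 0.05 to 1.32) was 1.1 in set 1 and 0.28 in set 2. Among the neurofilament genes, Nefm had 4.84 and 4.71 untreated, 6.84 and 4.83 with VPA, and 5.06 and 4.77 with NaBu. A single array, VPA replicate 1, thus carried its difference of 2.00 in set 1, against 0.12 in set 2.

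Nefl, the light subunit, showed the same array highest, with a VPA difference of 0.68 in set 1 and 0.12 in set 2. Nefh, the heavy subunit, went the other way, with 7.63 and 6.80 untreated, 7.29 and 6.54 with VPA, and 7.48 and 6.76 with NaBu. Its difference was -0.30 (95% interval -1.24 to 0.65), and with the replicate block, where the interval ran from -0.55 to -0.05, the adjusted p was 0.294. The neurofilament partner Ina stood at -0.05, the microtubule genes Dcx and Mapt at -0.10 and -0.02, and the growth cone gene Gap43 at 0.05.

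Of the RNA-binding proteins of the neuronal Hu family, Elavl4 had 3.60 and 3.51 untreated, 4.0 and 3.77 with VPA, and 3.80 and 3.84 with NaBu. All 4 treated arrays lay above the untreated ones, by 0.33 with VPA (95% interval 0.02 to 0.64) and 0.26 with NaBu (95% interval -0.05 to 0.58). Elavl3 stood at 0.40 with VPA, with 0.66 in set 1 and 0.13 in set 2, and at -0.05 with NaBu.

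**Figure D2:**
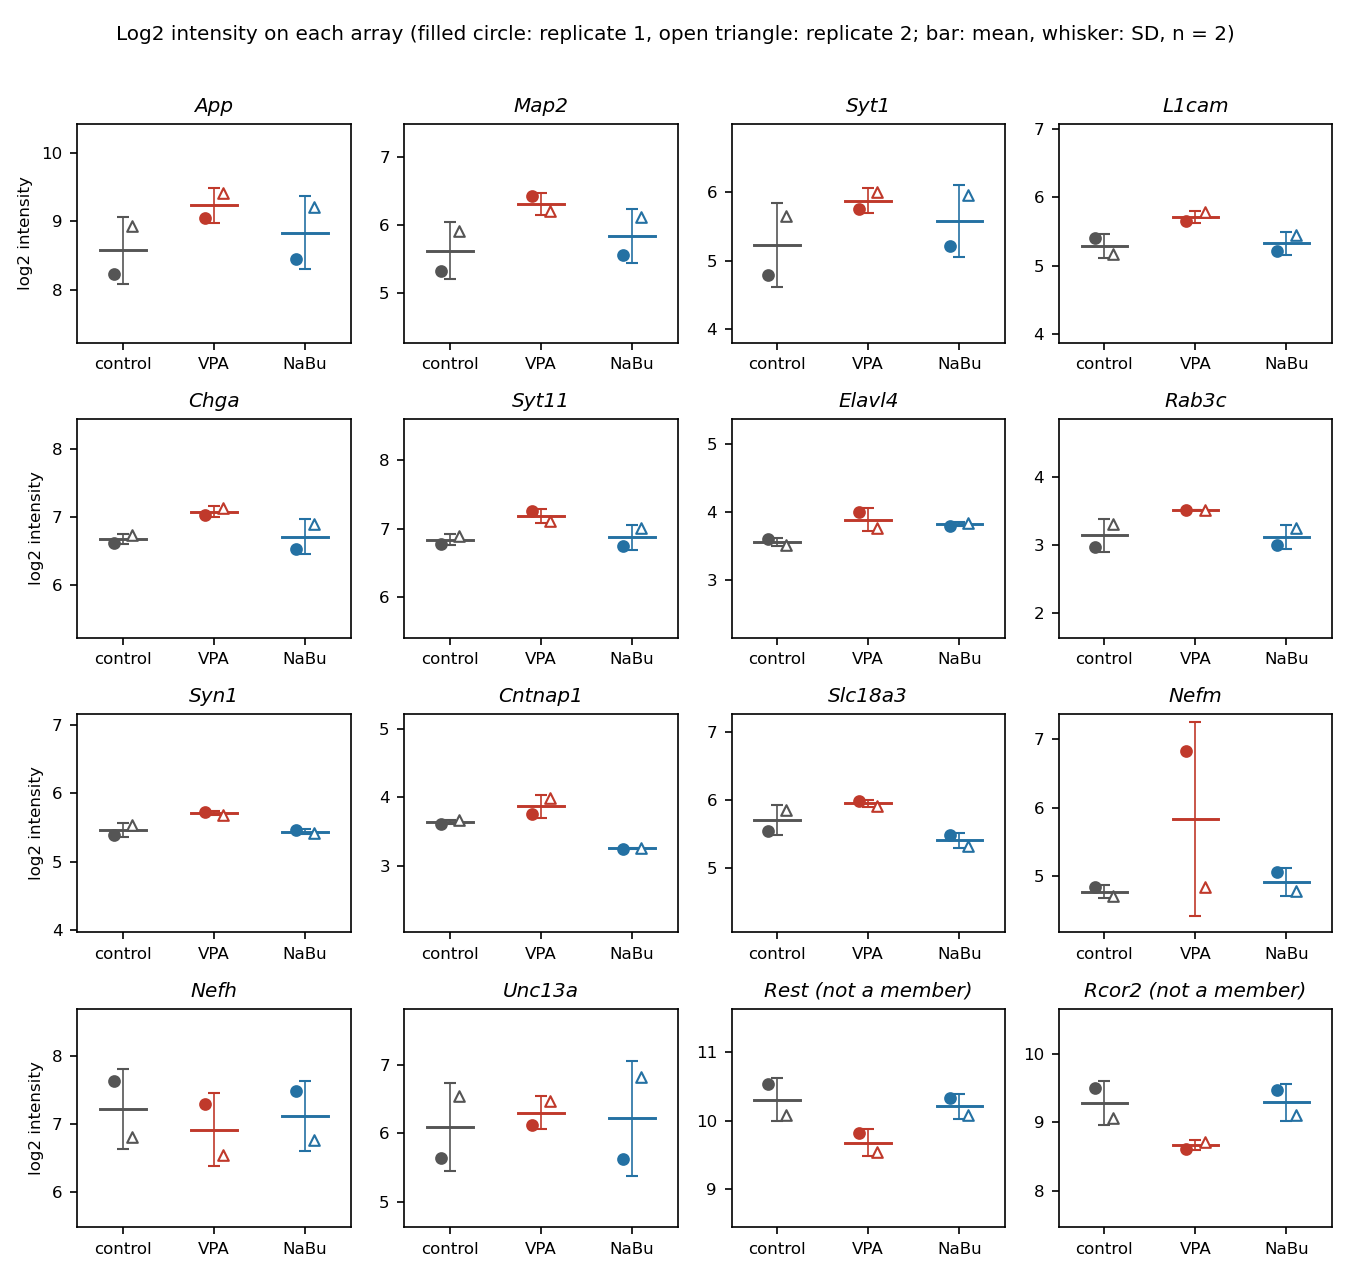
Log2 intensity on each of the 6 arrays for 14 of the genes and for Rest and Rcor2; filled circles are replicate 1, open triangles replicate 2, bars the group mean and whiskers the SD (n = 2), and every panel spans the same number of log2 units. App, Map2, L1cam and Chga have both VPA arrays above both untreated arrays, Nefm is high on VPA replicate 1 alone, and Rest has both VPA arrays below all others.

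REST and its corepressors lay mostly below the untreated level with VPA. Of 22 measured genes of REST and its corepressors (25 written), 18 lay below 0 and 12 lay below 0 in both sets (54.5%, background 28.0%), with a median of -0.09. limma called 0 of them, with 3 lower at an unadjusted p under 0.05 (background 2.18%). Rest had 10.53 and 10.08 untreated, 9.82 and 9.54 with VPA, and 10.34 and 10.08 with NaBu. The VPA arrays were the 2 lowest, with a difference of -0.63 (95% interval -1.11 to -0.15), whereas NaBu stood at -0.10. Rcor2, a CoREST protein, had 9.51 and 9.06 untreated, 8.61 and 8.71 with VPA, and 9.48 and 9.10 with NaBu. It stood at -0.62 with VPA (95% interval -1.10 to -0.14) and at 0.01 with NaBu. The Sin3 subunit gene Sap30 stood at -0.44, Rcor3 at -0.19, the demethylase Kdm1a at -0.12, Hdac2 at -0.09, Sin3a at -0.06, Hdac1 at 0.11 and Rcor1 at 0.16 with VPA. Whether the lower Rest RNA values, which limma did not call, had a part in the neuronal values was not tested, and the arrays do not measure REST protein.

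With NaBu the set was centred near the untreated level. Of the 44 genes, 23 lay above 0, with a median of 0.03 against 54.3% and 0.01 over all genes. In 12 members the difference lay above 0 in both sets (27.3%, background 29.1%) and in 9 below 0 in both (20.5%, background 23.1%), shares close to those of all genes. The median was -0.04 in set 1 and 0.13 in set 2. Its sign depended on single arrays, with -0.078 without control replicate 1 (15 members above 0), -0.088 without NaBu replicate 2 (13 above 0) and 0.16 without NaBu replicate 1. With the replicate block the median was -0.077 (15 above 0) without NaBu replicate 2 and 0.11 without NaBu replicate 1. Feeder markers had a mean NaBu difference of 0.05 in set 1 and 0.28 in set 2, with 18 of 19 above 0, and their part in the members' values was not tested.

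limma called 0 members and 0 of all genes (0.0%) for NaBu, with 311 genes at an unadjusted p under 0.05, and 0 genes with the replicate block. No member was higher at an unadjusted p under 0.05 (background 0.662%), and 1 was lower, Cntnap1 (2.27%, background 0.898%). With the block 1 was higher, Vgf (background 2.4%), and again Cntnap1 was lower (background 2.2%). Both NaBu arrays exceeded both control arrays for 3 members (6.82%, background 12.7%), namely Syt4, Elavl4 and Cntnap2, and lay below them for 6 (13.6%, background 11.2%).

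Cntnap1, an adhesion protein of the axon beside nodes of Ranvier, had the lowest NaBu difference of the set. It had 3.62 and 3.66 untreated, 3.75 and 3.99 with VPA, and 3.25 and 3.25 with NaBu. The 3 groups did not overlap, and NaBu stood at -0.39 (95% interval -0.69 to -0.08), with -0.37 and -0.41 in the sets, and VPA at 0.23 (95% interval -0.08 to 0.54). Slc18a3 followed the same order, with 5.55 and 5.86 untreated, 5.99 and 5.91 with VPA, and 5.49 and 5.33 with NaBu. It stood at -0.30 with NaBu (95% interval -0.65 to 0.06) and 0.24 with VPA (95% interval -0.11 to 0.60).

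The neurexin genes were also among those below the untreated arrays with NaBu. Nrxn3 had 3.85 and 3.92 untreated, 4.0 and 3.75 with VPA, and 3.74 and 3.52 with NaBu, a NaBu difference of -0.26 (95% interval -0.61 to 0.09). Nrxn2 had 5.72 and 5.57 untreated, 5.62 and 5.61 with VPA, and 5.50 and 5.45 with NaBu, a difference of -0.17 (95% interval -0.45 to 0.11). Both intervals include 0. At the upper end, beside Elavl4 and Syt4, Syt1 stood at 0.36 with NaBu (95% interval -0.49 to 1.20), App at 0.25, Vgf at 0.25, Cntnap2 at 0.22 and Map2 at 0.22. The VPA and NaBu differences share the untreated arrays, so a likeness between them is not independent.

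**Figure D3:**
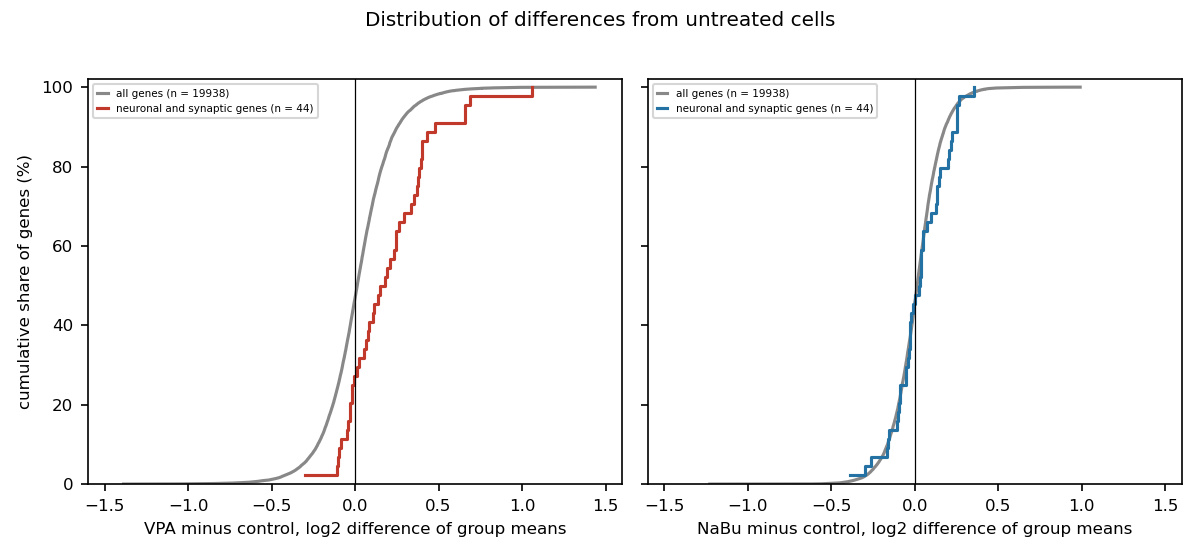
Cumulative share of genes by log2 difference of group means from untreated cells, for VPA (left) and NaBu (right); the stepped line holds the 44 genes and the grey line all 19938 genes. With VPA the stepped line lies to the right of the grey one over most of its range (medians 0.17 and 0.01), and with NaBu the lines run together (medians 0.03 and 0.01).

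A direct comparison of the treated cells does not use the untreated arrays, but the doses differed (0.5 mM VPA and 0.2 mM NaBu), so it does not rank the compounds. Of the 44 genes 33 were higher with VPA than with NaBu, with a median of 0.12 against 0.00 over all genes. In 19 (43.2%, background 27.5%) this held in both sets and in 5 (11.4%, background 28.6%) the reverse held in both. limma called 0 members and 0 of all genes (0.0%), with 724 genes at an unadjusted p under 0.05, and 0 with the block. The median was 0.048 without NaBu replicate 1 and 0.19 without NaBu replicate 2, and with the block 0.055 without VPA replicate 1. The blocked model without VPA replicate 2 called 363 genes, among them Nefm (1.82), Map2 (0.87) and Nefl (0.84).

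At an unadjusted p under 0.05 with limma 4 members were higher with VPA than with NaBu (9.09%, background 1.95%) and 0 were lower (background 1.69%). Among them Cntnap1 stood at 0.62 (95% interval 0.31 to 0.93), with 0.50 in set 1 and 0.73 in set 2. Slc18a3 stood at 0.54 (95% interval 0.19 to 0.90), with 0.50 and 0.58. L1cam stood at 0.39 (95% interval 0.03 to 0.75) and Rab3c at 0.39, with an interval that barely excludes 0. Nefm (0.92), Nefl (0.56) and Map2 (0.47) had larger differences than these last ones, with wider intervals that include 0, and in each the set 1 value was the larger. None of these passed with limma, where the smallest adjusted p among the members was 0.998, or 0.362 with the block. On the other side Fgf14 stood at -0.20, Nefh at -0.20 and Vgf at -0.14, all with intervals that include 0.

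The replicate sets differed for many members. The mean log2 value of the 44 genes was 5.23 and 5.37 on the untreated arrays, 5.50 and 5.49 with VPA, and 5.20 and 5.44 with NaBu, in each case for replicate 1 and then 2. Replicate 2 was thus higher in untreated and NaBu cells and level with replicate 1 in VPA cells. In 20 members replicate 2 was higher in all 3 conditions and in 7 it was lower in all 3. The mean set difference exceeded 0.5 in size for 8 members (18.2%), against 6.20% of all genes.

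Unc13a had the largest set difference, with 5.64 and 6.55 untreated, 6.13 and 6.47 with VPA, and 5.62 and 6.82 with NaBu. Its VPA difference of 0.21 had a 95% interval of -0.88 to 1.30. Replicate 2 was also higher in every condition for Aplp1 (by 0.72, 0.34 and 1.01 in untreated, VPA and NaBu cells), Syp (0.68, 0.39 and 0.90), Syt1 (0.87, 0.26 and 0.75) and App (0.70, 0.36 and 0.76). Nefh went the opposite way, at -0.82, -0.75 and -0.72, as did Mapt, at -0.70, -0.39 and -0.32. Feeder markers moved with the sets, with a mean level of 6.62 and 7.18 untreated, 6.40 and 7.37 with VPA and 6.67 and 7.46 with NaBu, and 15 of 19 were higher in replicate 2 in all 3 conditions. Their part in the set differences of the members was not tested.

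**Figure D4:**
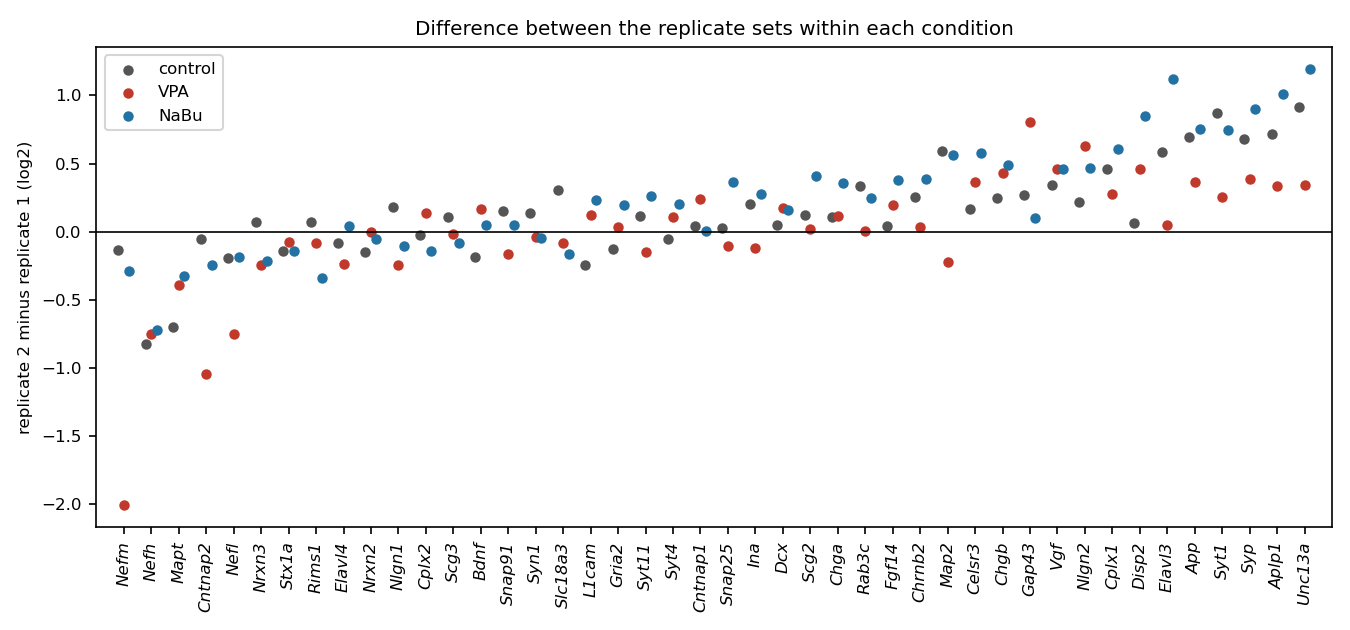
Replicate 2 minus replicate 1 (log2) for each of the 44 genes, 1 point per condition, ordered by the mean of the 3 conditions. Unc13a, Aplp1, Syp, Syt1 and App are higher in replicate 2 in every condition, Nefh and Mapt are lower in every condition, and the VPA point of Nefm is the lowest at -2.01.

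Brighter and dimmer members had similar shares above 0 with VPA, but differed in other counts. Of the 44, 15 lay at or above the median level of all genes, which was 5.77 on the log2 scale, and 29 below it. With VPA 11 of the 15 brighter genes and 21 of the 29 dimmer ones lay above 0, with medians of 0.21 and 0.15. In set 1 alone the VPA medians were 0.40 and 0.14, and in set 2 they were close, at 0.13 and 0.11. With NaBu, 0 brighter members had both arrays outside the control arrays. Of the dimmer ones 3 lay higher (10.3%, background 12.7%) and 6 lower (20.7%, background 11.2%). All 4 members higher with VPA than with NaBu at an unadjusted p under 0.05 with limma were dimmer ones (13.8%, background 1.95%). With the replicate block they were 5 of the 15 brighter (33.3%) and 7 of the 29 dimmer (24.1%), background 5.51%. For VPA against control without the block, 3 brighter (20.0%) and 2 dimmer members (6.90%) were higher at that threshold, background 2.74%. The backgrounds here are shares of all genes, not split by brightness. Between the sets, which share no array, the VPA differences of the 44 genes had a Spearman correlation of 0.279, against 0.306 over all genes, and the NaBu differences 0.185 against 0.081. The GC content of the 49 promoters had a median of 58.0%, against 57.3% for the genes on the array.

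Other neuronal genes, from a separate list of 66 written symbols of which 56 were measured, were nearer to 0 with VPA. Which of these genes are also REST targets was not examined. Of the 56, 36 lay above 0 (64.3%, background 53.0%) and 23 above 0 in both sets (41.1%, background 32.0%), with a median of 0.04. limma called 0 of them. At an unadjusted p under 0.05, 4 were higher (7.14%, background 2.74%) and 2 lower (background 2.18%). With the replicate block 9 were higher (16.1%, background 7.21%) and 5 lower (background 6.01%). Slc17a7, a vesicular glutamate transporter, stood at 0.90 (95% interval 0.13 to 1.66), the postsynaptic scaffold Shank2 at 0.50 and the sodium channel Scn2a at 0.40, and Scg5, a granule chaperone, at -0.33. With NaBu 26 of the 56 lay above 0, with a median of -0.01. Of 21 measured neurogenic transcription factors, 11 lay above 0 with VPA, with a median of 0.04, and 7 with NaBu, with a median of -0.05. Among them Neurod2 stood at -0.19, Pou4f1 at 0.24, Neurog2 at 0.13 and Myt1l at 0.16 with VPA, and none was called.

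The cell type labels were checked against marker genes. All 12 markers of pluripotent stem cells lay at or above the median level of all genes. Pou5f1, the gene of Oct4, had 11.90 and 11.63 untreated, 11.12 and 11.13 with VPA, and 11.68 and 11.56 with NaBu. Its VPA arrays were the lowest, with a difference of -0.64 (limma interval -0.97 to -0.31), though limma did not call Pou5f1. With VPA 11 of the 12 markers lay below 0 in both sets (91.7%, background 28.0%), with a median of -0.30. For NaBu 4 did (33.3%, background 23.1%). Of 11 measured markers of neural progenitors 5 lay above 0 with VPA (45.5%), with a median of -0.00. Of 11 measured glial markers 8 did, with a median of 0.13. That share, 72.7%, equals that of the members, against 53.0% of all genes. Both VPA arrays exceeded both control arrays for 4 glial markers (36.4%, members 38.6%, background 19.1%). The glial markers went both ways, with Sox10 at 0.43, Aldh1l1 at 0.43 (0.83 in set 1 and 0.03 in set 2), Mag at 0.21 (0.58 and -0.15) and Slc1a3 at -0.29. Mean levels of the progenitor markers ran from 5.59 to 5.76 over the arrays and those of the glial markers from 4.91 to 5.10, and RMA values have no true 0 by which a gene could be called absent. Their part in the neuronal values was not tested.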

How the data were processed

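RNA of 6 samples was hybridised to one-colour Affymetrix whole-transcript arrays. The authors deposited 1 log2 intensity per probeset and array. The submitters' processing notes name RMA and Affymetrix Expression Console 1.1. No setting, library file or build is named in the sources used here. Of 35556 probesets, 21789 carried a single gene symbol in the platform annotation and gave 19938 genes. Probesets with several symbols (1621) or none (12146) were not used. The 3 groups entered 1 limma fit (limma 3.58.1, R 4.3.3, lmFit, eBayes without trend, 1 mean per group, 3 residual degrees of freedom), with Benjamini-Hochberg adjustment over all 19938 genes at 0.05 and 95% intervals of single genes from this model. An exact permutation test of 2 against 2 arrays cannot go below p = 0.333, so none was used.

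The pairing by replicate number comes from the values and not from the labels: deviations of same-numbered arrays from their group means correlated across genes with r = 0.558 (control and VPA), 0.693 (control and NaBu) and 0.567 (VPA and NaBu). A model with the number as a block, with 2 residual degrees of freedom, was therefore run beside the unblocked one. The members, lists and rules were chosen with earlier results of these data known. Values on every array were given for members of the same sign in both sets among the 8 largest moderated statistics for VPA or for NaBu, for the 4 members with the largest set difference, and for Syp, Snap25, Syt4, Bdnf and Map2. Rest, Rcor1, Rcor2, Rcor3, Hdac1, Hdac2, Sin3a, Kdm1a, Pou5f1 and Col1a1 (VPA difference 0.18, NaBu 0.41) and up to 4 genes of each other list were also named by rule. The alternatives were median centring, quantile normalization, a filter on dim genes, the mean of all probesets, eBayes with trend, and leaving out each array with and without the block. The procedure was tested on simulated data with planted shifts larger than nearly all differences of group means seen among the members. Its ability to find smaller ones was not examined. Precision is limited by having 2 arrays per group, and levels were set against the median over all genes only to split the members by brightness and to check markers.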

Additional observations from a re-analysis of the deposited data

How the results depend on the processing

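With the replicate block limma called 0 genes in each of the 3 comparisons, as without it, and the block changed no call. Median centring, quantile normalization, the mean of all probesets and eBayes with trend also gave 0 calls, and the members above 0 with VPA numbered 30 to 32 under these. Among the 15 members at or above the median level of all genes, 11 lay above 0 for VPA, 8 for NaBu and 10 for VPA against NaBu. Leaving out 1 array, with or without the block, gave 0 to 774 genes called for VPA, 0 to 1 for NaBu and 0 to 363 for VPA against NaBu. Members called ranged from 0 to 7 for VPA and from 0 to 3 for VPA against NaBu, and were 0 for NaBu. All calls came from the blocked model with 1 residual degree of freedom. Without the block, the median of the members ranged from 0.107 to 0.23 for VPA, from -0.088 to 0.16 for NaBu and from 0.048 to 0.19 for VPA against NaBu, and with it from 0.10 to 0.20, from -0.077 to 0.112 and from 0.055 to 0.18. Members above 0 numbered 29 to 37, 13 to 30 and 24 to 37 in that order. The cause of these shifts was not tested. With 2 arrays per group, 5 of the 44 members had an unadjusted limma p under 0.05 for VPA, 1 for NaBu and 4 for VPA against NaBu. With the block these were 13, 2 and 12, and with all 6 arrays neither model called a member.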
